A study of Homo sapiens with 6 samples.

Results

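The 10 genes of heparan sulfate synthesis described here were read in SUM44 cells and in LCCTam cells: NDST1, NDST2, NDST3, NDST4, EXT1, EXT2, EXTL2, HS2ST1, HS3ST1 and SDC1. The members were taken as every probe set whose single gene symbol in the platform annotation was one of these names. This gave 17 of the 19065 named probe sets, for 9 of the 11963 genes measured on the array. No probe set carried the name NDST2 alone, so NDST2 was not analysed here. The genes were chosen by pathway, with earlier results of these data already known. These included the array values of NDST4 in the same 6 samples, and so its difference between the lines. Differences between the lines of these 10 genes are therefore given as a description, without a test. The lists of other genes were also drawn up with earlier results known, so counts over them are descriptions too. Counts past a threshold are set beside the share of all probe sets past it.

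SUM44 is a human invasive lobular breast carcinoma cell line, labelled as positive for estrogen and progesterone receptors. LCCTam is its tamoxifen-resistant variant and was cultured in 500 nM 4-hydroxytamoxifen, the active metabolite of tamoxifen, while the labels name no drug for SUM44. Line, drug exposure and passage number therefore cannot be told apart. Each line contributed 3 arrays, from passages 74, 75 and 76 of SUM44 and passages 8, 9 and 10 of LCCTam, all from cells at 70% confluence in the same Ham's F12 medium. Both are single cell lines and nothing says that passages were independent cultures. Any p-value therefore sets a difference only against the spread between these passages, and does not extend to other cultures. The values are log2 expression, and 1 unit is a 2-fold change.

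Heparan sulfate is a long sugar chain built in the Golgi on the core protein of a proteoglycan. EXT1 and EXT2 form the enzyme complex that adds glucuronic acid and N-acetylglucosamine in turn. NDST enzymes then remove acetyl groups and put sulfate on the freed nitrogen, which opens the chain to an epimerase and to the 2-O-, 6-O- and 3-O-sulfotransferases. The pattern of sulfate decides which growth factors, morphogens and receptors bind, FGF and WNT ligands among them. In breast epithelium the chains are carried largely by syndecans such as SDC1.

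The members that differed most between the lines were NDST4, which was higher in LCCTam, and HS2ST1, which was lower. The 250 bases before the RefSeq transcript start of both genes are shown, with those of NDST3, the related gene on the same chromosome arm as NDST4. They are given 5′ to 3′ on the strand of the gene from the GRCh38.p14 promoter table. Capitals mark the letters TATAAA, the core of a TATA box. The NDST4 window is chr4:115113621-115113870 on the minus strand, the NDST3 window is chr4:118033072-118033321 on the plus strand, and the HS2ST1 window is chr1:86914385-86914634 on the plus strand.
NDST4: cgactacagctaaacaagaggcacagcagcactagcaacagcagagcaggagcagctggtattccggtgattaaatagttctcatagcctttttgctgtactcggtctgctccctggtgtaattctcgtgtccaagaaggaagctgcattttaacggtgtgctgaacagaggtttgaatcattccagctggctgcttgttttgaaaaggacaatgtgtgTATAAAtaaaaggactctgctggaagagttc
NDST3: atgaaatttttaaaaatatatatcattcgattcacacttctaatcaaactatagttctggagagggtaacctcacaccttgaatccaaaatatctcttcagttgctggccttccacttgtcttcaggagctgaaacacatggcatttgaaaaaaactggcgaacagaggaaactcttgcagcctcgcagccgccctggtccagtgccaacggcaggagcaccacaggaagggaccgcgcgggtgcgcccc
HS2ST1: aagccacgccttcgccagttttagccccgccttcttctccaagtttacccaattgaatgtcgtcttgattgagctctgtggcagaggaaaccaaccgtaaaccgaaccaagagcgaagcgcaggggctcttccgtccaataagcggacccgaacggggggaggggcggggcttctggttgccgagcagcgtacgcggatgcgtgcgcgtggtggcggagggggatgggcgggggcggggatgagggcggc

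The windows differ in base composition. NDST4 was 45.6% G or C with 5 CpG dinucleotides, NDST3 was 48.0% with 9, and HS2ST1 was 63.2% with 24. Over 27305 genes with one such window each, the medians were 57.6% and 10. TATAAA, searched on both strands, stood 31 bases before the start in NDST4, on the strand of the gene. It was in 2 of the 9 member windows that were matched, the other being EXT2 on the opposite strand, and in 11.2% of all windows. The matched members included NDST2 but not EXT1. The letters AAGGTCA, the core of the site bound by estrogen-related receptors, the family named in the study's title, were searched the same way. They were in 0 of these 9 windows and in 3.5% of all windows. These matches describe letters in a window, and no binding was measured.

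NDST4 encodes the fourth member of the N-deacetylase and N-sulfotransferase family. Its probe set 208334_at read 5.47, 5.08 and 5.21 in SUM44 at passages 74, 75 and 76. It read 7.66, 7.50 and 7.66 in LCCTam at passages 8, 9 and 10. The lowest LCCTam value thus lay more than 2 units above the highest SUM44 value, and all LCCTam arrays sat close together. The means were 5.25 ± 0.20 and 7.61 ± 0.09 (SD, n = 3 each), a difference of 2.35 on the log2 scale or 5.11-fold. No background level is known for this probe set, so the fold is that of the deposited values, and it cannot be said whether SUM44 expressed NDST4. This was the 16th largest increase among 19065 named probe sets. Leaving out any one array moved the difference only between 2.27 and 2.47.

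The other family members that were read lay much closer between the lines. NDST1, the broadly expressed member of the family, had a brighter probe set, 202607_at, at 8.09, 7.59 and 7.62 in SUM44 and at 7.80, 7.83 and 7.29 in LCCTam. The lines overlapped, and the difference was -0.13. Its other probe set, 202608_s_at, read 5.60, 5.58 and 5.57 in SUM44 and 5.79, 5.83 and 5.62 in LCCTam. These values did not overlap, but the difference was only 0.16, and the 2 NDST1 probe sets pointed in opposite directions. Without LCCTam passage 10 both were positive, at 0.05 for 202607_at and 0.23 for 202608_s_at. NDST3 read 4.25, 4.17 and 4.15 in SUM44 and 4.23, 4.17 and 4.61 in LCCTam. Its difference of 0.15 came from passage 10, and without that array it was 0.01. NDST3 stood at percentile 13.9 of all probe set means, and with no background level to hand it cannot be said whether it was expressed.

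**Figure D1:**
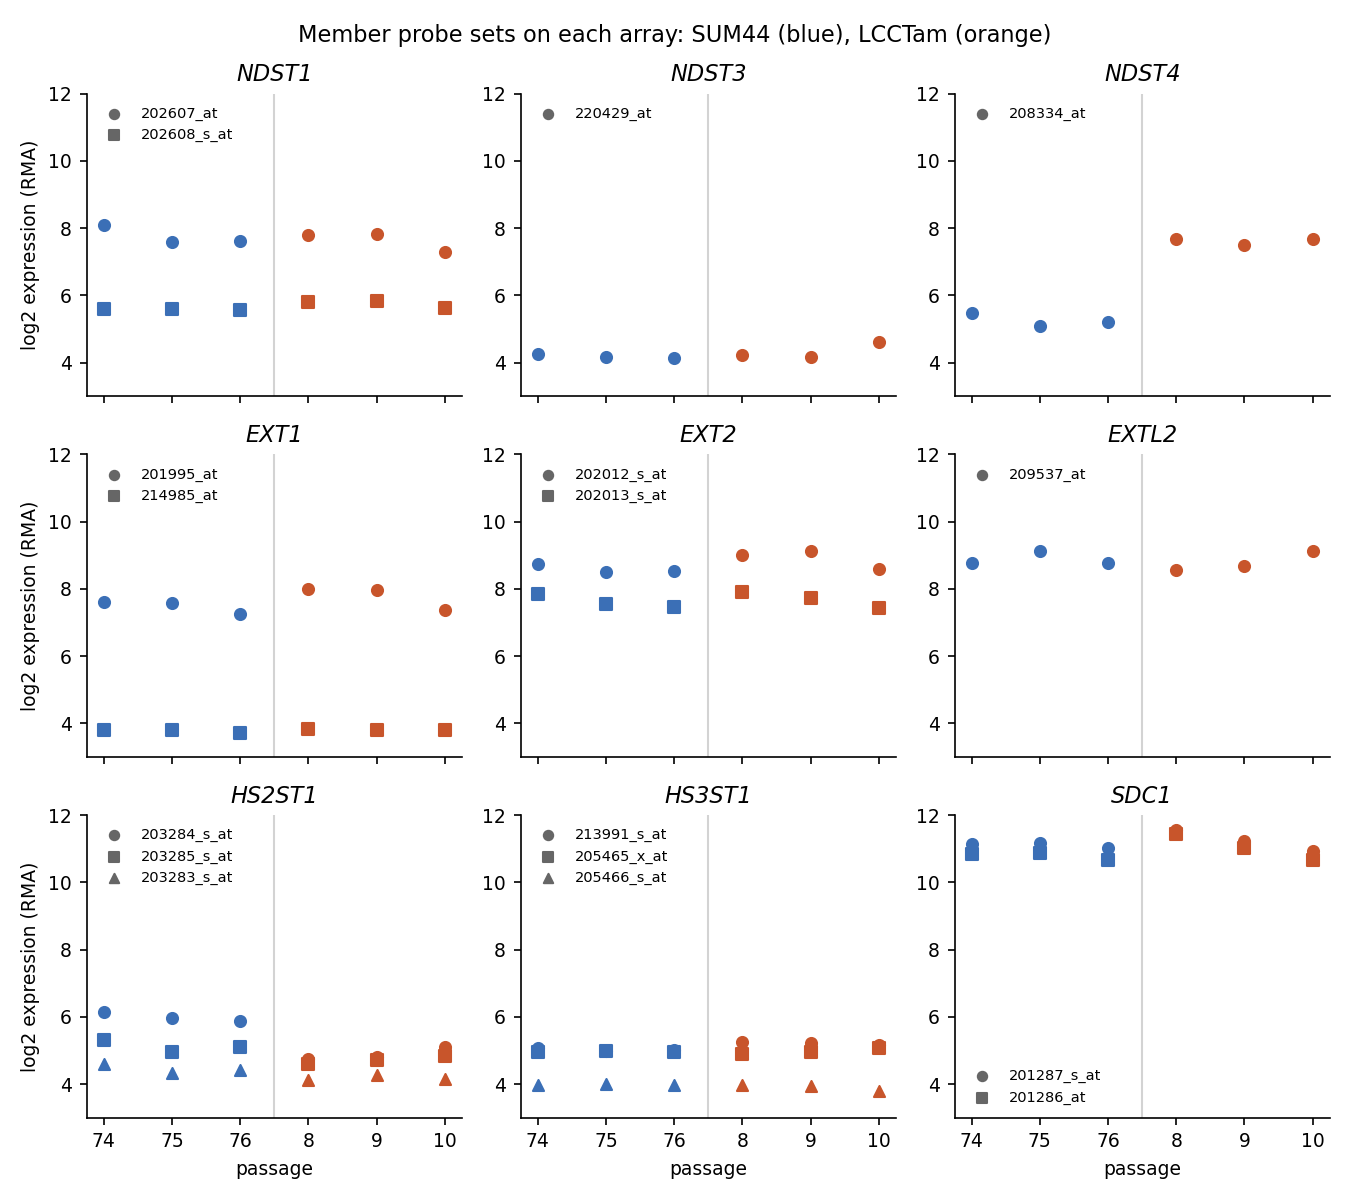
Log2 expression (RMA) of every member probe set on each of the 6 arrays, with passages on the horizontal axis, SUM44 in blue and LCCTam in orange, and one marker shape for each probe set of a gene. NDST4 sits between 5.08 and 5.47 in SUM44 and between 7.50 and 7.66 in LCCTam, and the brightest HS2ST1 probe set averages 6.01 in SUM44 and 4.88 in LCCTam.

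HS2ST1, the single 2-O-sulfotransferase of the pathway, puts sulfate on the uronic acid of the chain. All 3 of its probe sets were lower in LCCTam without overlap, as 16.6% of all named probe sets were. The brightest of the 3, 203284_s_at, read 6.16, 5.97 and 5.88 in SUM44 and 4.74, 4.81 and 5.10 in LCCTam. The means were 6.01 ± 0.14 and 4.88 ± 0.19 (SD, n = 3 each), a difference of -1.12, or 2.18-fold lower. The size was not the same in the other probe sets. 203285_s_at read 5.30, 4.95 and 5.12 against 4.59, 4.71 and 4.85, a difference of -0.40. 203283_s_at read 4.61, 4.32 and 4.41 against 4.12, 4.26 and 4.16, a difference of -0.27. The latter was dim, at percentile 14.8 of all probe set means. 203284_s_at stood at 40.1 and 203285_s_at at 29.0, so the smaller differences were those of the dimmer probe sets. No background level is known for them, so the 2.18-fold is that of the deposited values. Whether low signal made the smaller differences was not tested. Leaving out any one array kept the brightest probe set between -1.23 and -1.04.

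HS3ST1, a 3-O-sulfotransferase that makes the rare modification bound by antithrombin, was read by 3 probe sets with small differences. Probe set 213991_s_at averaged 5.03 ± 0.04 across the SUM44 arrays and 5.21 ± 0.04 across the LCCTam arrays (SD, n = 3 each), and its lowest LCCTam value, 5.16, lay above its highest SUM44 value, 5.08. Its difference was 0.18. Probe sets 205465_x_at and 205466_s_at differed by 0.00 and -0.07, with overlapping values. The direction for HS3ST1 was therefore not shared among its probe sets.

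Over all arrays the chain polymerase genes differed by at most 0.31, with LCCTam passage 10 apart from the other LCCTam arrays in the brighter probe sets. Without passage 10 the brighter EXT1 and EXT2 probe sets differed by 0.50 and 0.47. EXT1 probe set 201995_at read 7.61, 7.57 and 7.25 in SUM44 and 8.00, 7.96 and 7.37 in LCCTam. Passages 8 and 9 lay above every SUM44 value and passage 10 lay among them, and the difference was 0.30. The other EXT1 probe set, 214985_at, was dim on all arrays, between 3.71 and 3.84. EXT2 probe set 202012_s_at read 8.74, 8.50 and 8.54 in SUM44 and 9.01, 9.13 and 8.58 in LCCTam, again with only passage 10 inside the SUM44 range, and differed by 0.31. The other EXT2 probe set, 202013_s_at, differed by 0.08. EXTL2, a related transferase of the linkage region, read 8.77, 9.12 and 8.76 in SUM44 and 8.57, 8.67 and 9.13 in LCCTam. Its lines overlapped only through LCCTam passage 10, and the difference was -0.09, or -0.26 without that array.

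SDC1 encodes syndecan-1, a transmembrane core protein of epithelial cells. Its brighter probe set, 201287_s_at, read 11.14, 11.17 and 11.03 in SUM44 and 11.57, 11.23 and 10.93 in LCCTam. The other, 201286_at, read 10.83, 10.87 and 10.65 against 11.45, 11.03 and 10.66. In both, passages 8 and 9 were above every SUM44 value and passage 10 was not. The differences were 0.14 and 0.27, with LCCTam SDs of 0.32 and 0.39 that were larger than either difference.

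Passage 10 of LCCTam differed in quality measures of the array. For actin, the 3′ control signal exceeded the 5′ signal by 1.92 log2 units on it, against 0.90 to 1.15 on the other arrays, and the 75th percentile of its values was 7.50, against 7.67 to 7.77. Of the 7 member probe sets with a mean over 7, 6 were lower at passage 10 than the mean of passages 8 and 9. EXTL2 was the exception, at 0.51 higher. Among all named probe sets with a mean over 7, 74.6% were lower at passage 10. Without passage 10 the differences were 0.50 for the brighter EXT1 probe set, 0.47 for the brighter EXT2 probe set, and 0.29 and 0.46 for SDC1. EXTL2 was then at -0.26 and the brighter NDST1 probe set at 0.05. NDST4 and the brightest HS2ST1 probe set were then at 2.33 and -1.23. The part of array quality in the NDST1, EXT1, EXT2, EXTL2 and SDC1 values was not tested.

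**Figure D2:**
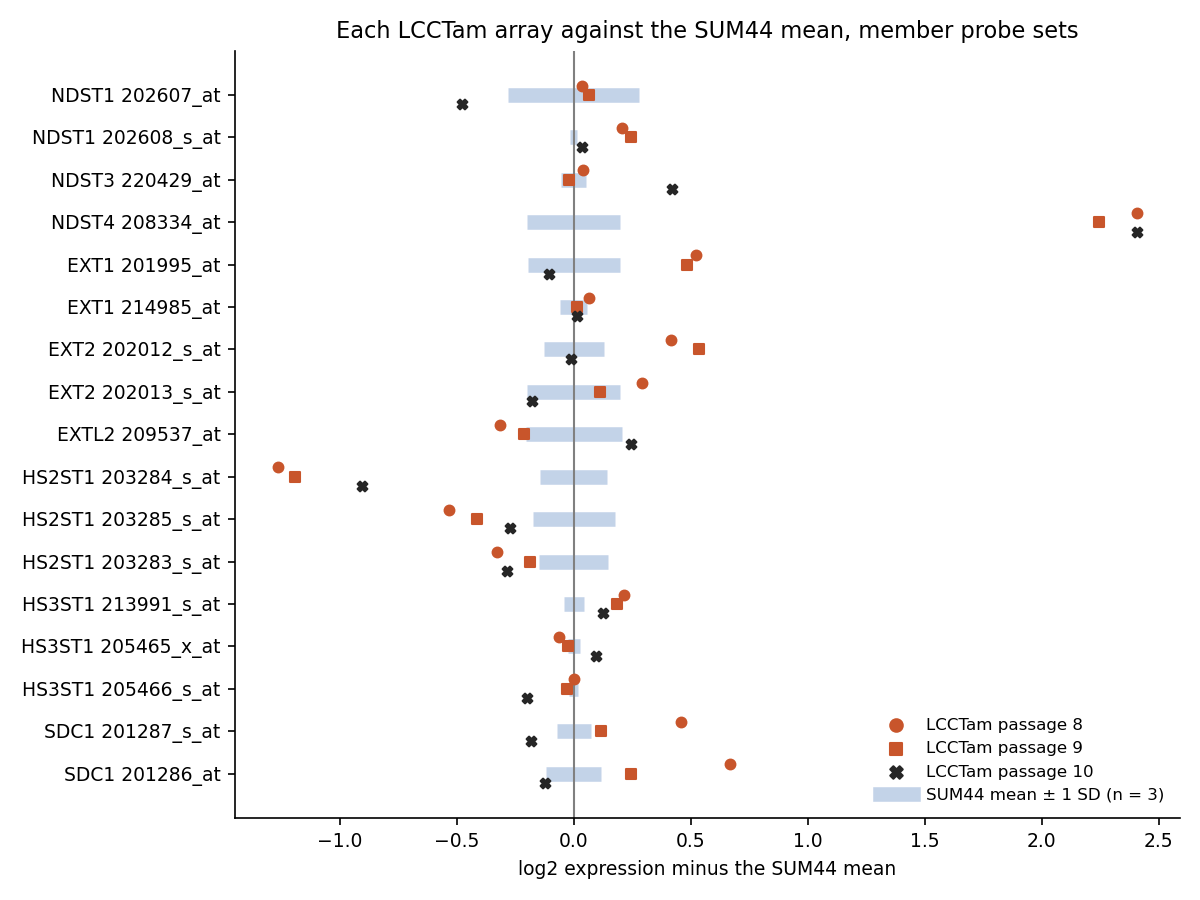
Each LCCTam array minus the SUM44 mean for the 17 member probe sets, on the log2 scale, with the band showing 1 SD of the SUM44 arrays (n = 3). All LCCTam arrays lie to the right for NDST4 and to the left for HS2ST1, while for SDC1, EXT1 201995_at and EXT2 202012_s_at passage 10 (cross) lies apart from passages 8 and 9.

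Among the 17 member probe sets, 2 were past an adjusted p of 0.05 in the limma fit over all named probe sets, 1 higher (NDST4) and 1 lower (HS2ST1 203284_s_at). Of all named probe sets 7.37% were past it, 1.72% being higher and 5.65% lower. For 6 member probe sets, 3 higher and 3 lower, SUM44 and LCCTam occupied separate ranges. This held for 29.6% of all named probe sets, 13.0% higher and 16.6% lower. The median difference was 0.08 for the members and 0.01 for all named probe sets. Without passage 10, 3 member probe sets were past the threshold, and EXT2 202012_s_at was the addition. Over all named probe sets the share past it was then 11.7%. Since the difference between the lines guided the choice of genes, nothing is read from these counts.

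The remaining enzymes of chain assembly and sulfation, which were not members, showed no change that passed. Of 19 such genes 12 were measured, 0 passed limma's adjusted p of 0.05 and 0 had an unadjusted p under 0.05. Of all genes 7.92% passed and 23.1% had an unadjusted p under 0.05. The differences of the 12 genes ran from -0.11 to 0.26. For the linkage region, B3GAT3, which adds the glucuronic acid that completes the linker, had the largest difference, at 0.26 (limma adjusted p = 0.241). Of the other EXT-like genes, EXTL1 differed by 0.21 (adjusted p = 0.436). The largest among the epimerase and O-sulfotransferases was HS6ST1, a 6-O-sulfotransferase, at 0.21 (adjusted p = 0.270). In an alternative fit with array weights, B3GAT3 and B4GALT7, another linkage region gene, passed. That fit took 32.1% of all genes.

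Enzymes and transporters that supply the sugars of the chain were lower in LCCTam where they passed. Among the 8 that were measured, 3 fell, 0 rose and 5 did not pass. Their median difference was -0.38, against 0.017 for all genes. In the fit of all genes 7.92% passed, 2.09% higher and 5.83% lower. UXS1, which makes the UDP-xylose that starts every linker, read 7.67, 7.81 and 8.22 in SUM44 and 6.81, 6.64 and 6.61 in LCCTam. The lines were well apart, with a difference of -1.21 (SE 0.15, limma adjusted p = 0.00569). UGDH, which makes UDP-glucuronic acid, read 5.68, 6.02 and 6.01 in SUM44 and 4.93, 4.77 and 4.89 in LCCTam. Its difference was -1.03 (SE 0.12, adjusted p = 0.00392), or 2.05-fold lower.

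SLC35A3, which carries UDP-N-acetylglucosamine into the Golgi, also fell. It read 10.27, 10.49 and 10.29 in SUM44 and 9.68, 9.33 and 9.50 in LCCTam, a difference of -0.85 (SE 0.12, limma adjusted p = 0.00880). Its other probe set was lower by a larger amount, at -1.24 (adjusted p = 0.00819 in the fit of probe sets). UXS1 and UGDH passed whichever array was left out. SLC35A3 passed in all of these fits but the one without SUM44 passage 75, where its adjusted p was 0.0520. Without LCCTam passage 10 the count for this list was 5, all lower, in a fit where 12.8% of all genes passed.

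Core proteins of proteoglycans other than SDC1 went both ways. Among the 12 that were measured, 2 rose, 2 fell and 8 did not pass, where 7.92% of all genes passed. GPC4, a glypican anchored in the membrane by a lipid, read 6.13, 6.50 and 7.20 in SUM44 and 8.06, 8.29 and 8.23 in LCCTam. Its difference was 1.58 (SE 0.25, limma adjusted p = 0.0131), and the SUM44 arrays were spread over about 1 unit. TGFBR3, or betaglycan, a coreceptor for TGF-beta that can carry heparan sulfate, read 6.12, 5.84 and 5.31 in SUM44 and 6.81, 7.13 and 7.45 in LCCTam, a difference of 1.37 (SE 0.24, adjusted p = 0.0176).

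CD44, a hyaluronan receptor of which some forms carry heparan sulfate, differed by -0.73 (limma adjusted p = 0.0436) and AGRN, or agrin, a basement membrane proteoglycan, by -0.63 (adjusted p = 0.0206). The AGRN probe sets did not move together. 212285_s_at and 217419_x_at were lower, at -0.63 and -0.49, while 212283_at and 217410_at differed by 0.28 and 0.05. All 8 CD44 probe sets were lower, and besides 212063_at, which stood for the gene, 217523_at passed, at -0.70 (adjusted p = 0.0158 in the fit of probe sets). Fits that left out an array lost some of these calls while the direction of each difference held. 0 of the 12 core protein genes passed without SUM44 passage 75 or without LCCTam passage 9, fits in which 2.17% and 3.35% of all genes passed. GPC4 was then at 1.53 in both and TGFBR3 at 1.41 and 1.37. The count was 2 without SUM44 passage 74 or LCCTam passage 8. CD44 did not pass in any fit that left out an array (adjusted p from 0.0558 to 0.141), with differences from -0.85 to -0.59.

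**Figure D3:**
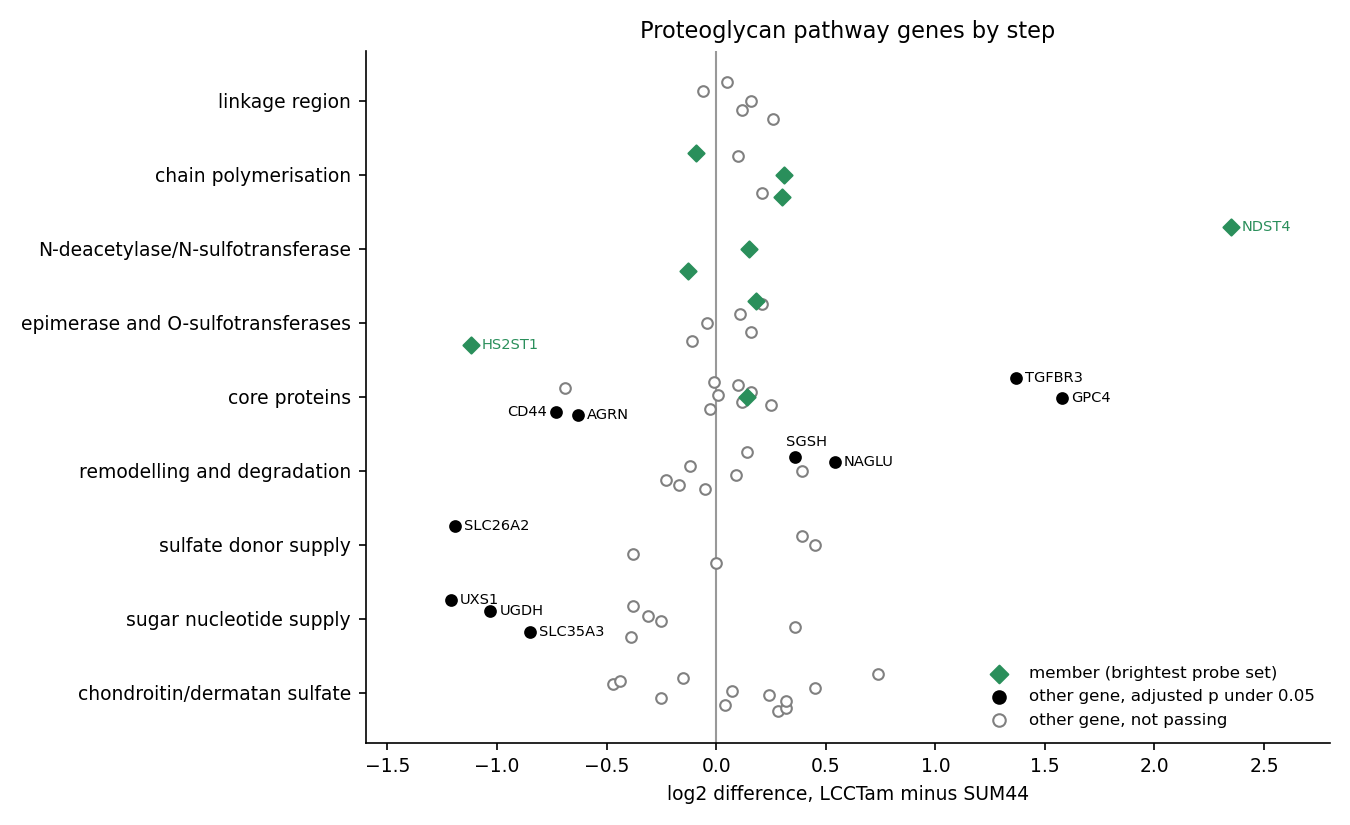
Log2 difference, LCCTam minus SUM44, for the members (green diamonds, brightest probe set of each) and for the other pathway genes by step, where filled circles passed limma's adjusted p of 0.05 and open circles did not. The assembly and sulfation steps stay close to 0 except for NDST4 at 2.35 and HS2ST1 at -1.12, and UXS1, UGDH and SLC35A3 lie together on the left.

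Sulfate supply and chain breakdown gave few calls, in the fit where 7.92% of all genes passed. Sulfate donor supply had 5 measured genes, of which 1 fell, 0 rose and 4 did not pass. That gene was SLC26A2, a sulfate transporter of the cell membrane, which read 5.82, 5.88 and 4.81 in SUM44 and 4.50, 4.10 and 4.34 in LCCTam. It differed by -1.19 (SE 0.28, limma adjusted p = 0.0492), with SUM44 passage 76 near the LCCTam values. It passed without that array (adjusted p = 0.00367), and its adjusted p was 0.0714 to 0.175 when any other array was left out. Remodelling and degradation had 9, of which 2 rose, 0 fell and 7 did not pass. NAGLU and SGSH, lysosomal enzymes that take the chain apart, were higher by 0.54 (adjusted p = 0.0321) and 0.36 (adjusted p = 0.0475).

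The second SGSH probe set was likewise higher, by 0.47, and the second NAGLU probe set differed by 0.16 and did not pass. The remodelling count was 0 without SUM44 passage 75 or 76 or without LCCTam passage 8 or 9, and it was 1 without SUM44 passage 74. It was 3 without LCCTam passage 10, a fit in which 12.8% of all genes passed. The genes of chondroitin and dermatan sulfate, the chains that share the linker, had 0 of 12 passing in limma, and 7 had an unadjusted p under 0.05, against 23.1% of all genes. UST, an uronyl 2-O-sulfotransferase of that pathway, had the largest difference, at 0.74 (adjusted p = 0.101). It passed without SUM44 passage 74 (adjusted p = 0.0402), and CHSY1, a chondroitin synthase, passed without LCCTam passage 8. In all, 10 of 58 measured pathway genes outside the members passed, 4 higher and 6 lower. Of all genes 7.92% passed, 2.09% higher and 5.83% lower. In limma 23 of the 58 had an unadjusted p under 0.05. Of all genes 23.1% had one. Without SUM44 passage 75 the count of passing pathway genes was 2, without LCCTam passage 9 it was 3 and without LCCTam passage 8 it was 6. The shares of all genes that passed in these fits were 2.17%, 3.35% and 2.95%.

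**Figure D4:**
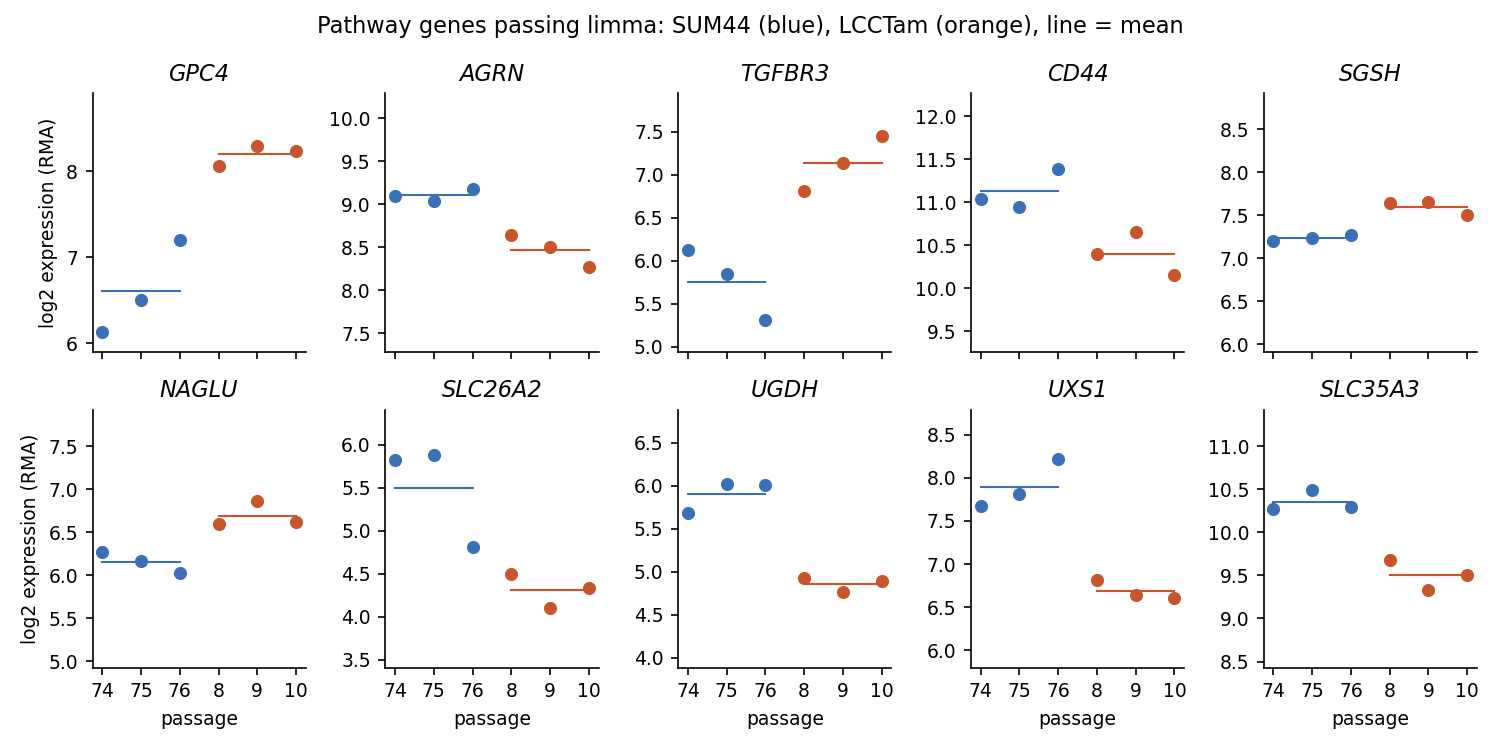
Log2 expression (RMA) on each array of the 10 pathway genes outside the members that passed limma's adjusted p of 0.05, with SUM44 in blue, LCCTam in orange and a line at each mean; every panel spans 3 log2 units. The lines are apart for UXS1, UGDH and SLC35A3, while SUM44 passage 76 of SLC26A2, at 4.81, lies near the LCCTam values.

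Ligands that bind heparan sulfate gave 0 of 13 measured genes passing in limma, and 4 had an unadjusted p under 0.05, where 23.1% of all genes did. MDK, or midkine, a heparin-binding growth factor, had the largest difference, at 0.50 (adjusted p = 0.0710), and it passed without LCCTam passage 10 (difference 0.62). Markers of luminal epithelium were bright in both lines, with KRT18 at 13.40 and 13.18 and GATA3 at 12.80 and 12.57, while PGR was dim in both at 3.85. Over all genes 5.83% fell past the threshold, and of these 10 markers 2 did. They were ESR1, with a difference of -1.65 (limma adjusted p = 0.00124), and MUC1, with -1.38 (adjusted p = 0.0477). Without SUM44 passage 76 both still passed, and in the other 5 fits that left out an array MUC1 did not (adjusted p from 0.0762 to 0.177, differences from -1.44 to -1.07). Of 7 fibroblast and 6 leukocyte or endothelial markers measured, 0 passed in limma and 0 had an unadjusted p under 0.05. Among these the largest differences were DCN at -0.18 and PECAM1 at -0.18.

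No measured gene near NDST4 was higher in LCCTam past the threshold, where 2.09% of all genes were. The transcription starts of NDST4 and NDST3 lie 2.92 Mb apart in the RefSeq tables (GRCh38.p14). Other genes were taken where their lower coordinate in the gene table lay within 3 Mb of that of either gene. Of these 147 genes, 23 of which are protein-coding, 14 were measured. The same 14 were found by transcription start where the strand was known. Only 5 of the 14 had a mean above the 25th percentile of gene means. With no background level it cannot be said whether the dimmer ones were expressed. The median difference of the 14 was 0.03. UGT8, the nearest measured gene, starts 0.52 Mb from the start of NDST4 and differed by -0.06 (limma adjusted p = 0.800). PRSS12, the measured gene nearest to NDST3, differed by 0.08 (adjusted p = 0.699). Of all genes 2.09% passed higher and 5.83% lower, so nothing is read from counts among 14 genes. Of the 14, 0 rose and 1 fell. That gene was AP1AR, a regulator of adaptor-mediated transport, which read 6.79, 7.06 and 7.01 in SUM44 and 5.59, 5.59 and 5.58 in LCCTam, a difference of -1.37 (adjusted p = 0.00070). Without SUM44 passage 74, MAD2L1, a spindle checkpoint gene, was also lower (-0.77, adjusted p = 0.0419). In that fit 6.09% of all genes passed.

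**Figure D5:**
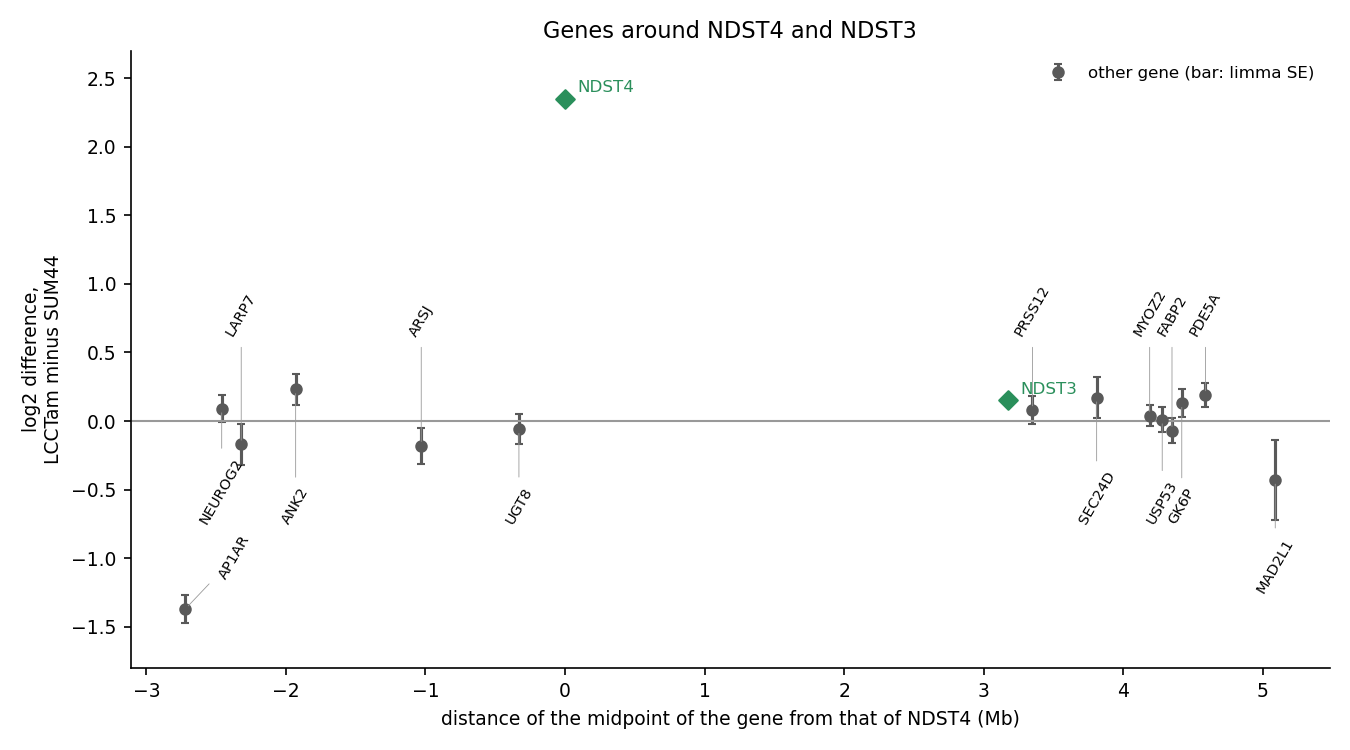
Log2 difference, LCCTam minus SUM44, of the 14 measured genes around NDST4 and NDST3 (grey, with limma's SE) against the distance of their midpoint from that of NDST4 in Mb, and of the 2 member genes (green, no error bar). NDST4 stands at 2.35, NDST3 at 0.15, and AP1AR alone is far below 0, at -1.37.

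The probe sets whose pattern over the 6 arrays lay closest to NDST4 were found by Euclidean distance after each was centred on its own mean. TPM1, an actin-binding tropomyosin, was closest, at a distance of 0.50 (Pearson's r = 0.986). It was followed by 3 probe sets of RET, a receptor tyrosine kinase, at 0.53, 0.55 and 0.57, and by ALDH3B1, an aldehyde dehydrogenase, at 0.58. TPM1 read 9.38, 9.19 and 9.35 in SUM44 and 11.34, 11.77 and 11.48 in LCCTam. These points share the contrast between the lines, so the likeness is mainly that of a gap of about 2 units and is given as a description.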

How the data were processed

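Expression was measured on 6 arrays with 22283 probe sets, 3 arrays for each line. The deposited values are log2 expression that the authors made with RMA in Bioconductor, per the labels' processing notes and the submitters' design text. RMA corrects background, makes array distributions alike and summarises probes. Its version is not given in the sources used here. There were no detection calls, and the number of arrays limits precision.

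The platform annotation gave the gene names. Controls numbered 68, and 19065 other probe sets had 1 gene symbol. Each of 11963 genes was read by its probe set with the highest mean. LCCTam minus SUM44 was fitted by lmFit and eBayes of limma 3.58.1 (R 4.3.3), over probe sets for the members and over genes for all other genes, with Benjamini-Hochberg adjustment over the whole table at 0.05. All p-values in the text come from these fits.

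The members and gene lists were chosen with earlier results of these data known, and the motifs after the sequences were read. Named were all member probe sets, per list up to 6 passing genes with the largest differences (or the largest difference where 0 passed), the NDST4 and NDST3 neighbours and the 5 probe sets most like NDST4. KRT18, GATA3, PGR and CHSY1 were picked after their values were seen. Promoter windows come from RefSeq (GRCh38.p14). 9 of 10 members were matched, all but EXT1. Where a gene had several windows the one at its outer start was used, or the first listed. Alternatives changed normalization, weights, variance model, filters, probe sets and single arrays.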

Additional observations from a re-analysis of the deposited data

How the results depend on the processing

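All alternatives reuse the same arrays, so they describe the processing and add no independent evidence. The member probe sets of NDST4 and HS2ST1 203284_s_at were past the threshold in every alternative that kept both. With array weights 12 of 17 were past it, but that fit also took 32.6% of all probe sets. Without _x_at and _s_at probe sets, which include all of HS2ST1, 1 of 7 was past it (6.80% of all probe sets in that fit). Leaving out an array gave 2 to 3, in fits that took 2.00% to 11.7% of all probe sets. For pathway genes outside the members, 26 of 58 passed with array weights (32.1% of all genes). Without _x_at and _s_at probe sets 6 of 40 passed (7.15% of all genes in that fit). The submitters describe a rule of at least 2-fold, unadjusted p under 0.05 and mean of at least log2 of 10. Under it 5 of 58 passed (2.46% of all genes). Leaving out an array gave 2 to 11, in fits where 2.17% to 12.8% of all genes passed. AGRN changed sign, to 0.28, without _x_at and _s_at probe sets. Genes near NDST4 and NDST3 gave 2 calls with array weights, and 1 to 2 when an array was left out. Taking genes near NDST4 by transcription start, an alternative chosen after seeing the data, gave 1 call. Other alternatives kept these 3 counts within 1.5 times. No paired analysis was possible because the lines share no passage number. Without a background level, differences of dim probe sets such as NDST3 cannot be told from no expression.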
